A study of Homo sapiens with 36 samples.

Results

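The 9 genes described here encode transcription factors that set pancreatic, squamous and general epithelial identity: TP63, GATA6, FOXA1, FOXA2, SOX9, ELF3, GRHL2, EHF and OVOL1. They were taken by gene name from a table of 29744 genes, and 9 of the 9 were among the 14988 genes that passed a count filter. Their transcripts were measured by polyA-selected RNA sequencing in BxPC-3, an established line from a human pancreatic ductal adenocarcinoma, labelled wild type. Cells in serum-containing RPMI medium received 1 of 5 compounds at 3 µM or the solvent DMSO for 2 or 4 h. The 12 groups were DMSO, JQ1, MS78, TRAP1, TRAP-1-NegP and TRAP-1-NegB at each time, with 3 libraries a group and 36 in all. TRAP1 is a compound here, written TRAP-1 in the treatment text, and not the gene of that symbol. JQ1 blocks the bromodomains of BET proteins, the part with which they bind acetylated chromatin. The labels do not say what TRAP1, its NegB and NegP forms or MS78 bind. Replicates carry numbers in the labels, with no word on whether they were separate cultures, so p-values measure the spread between these libraries, which may be technical. All groups are of 1 cell line, and all compound comparisons at a time share the same 3 DMSO libraries.

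TP63 encodes p63, a relative of p53 that maintains squamous and basal epithelium and is active in the basal-like form of pancreatic cancer. FOXA1 and FOXA2 are pioneer factors of endoderm, GATA6 is an endodermal factor that marks the classical form of pancreatic cancer, and SOX9 marks pancreatic progenitors and ducts. ELF3 and EHF are epithelium-specific ETS factors, and GRHL2 and OVOL1 keep epithelial cells from taking on a mesenchymal state.

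TP63 has a pair of start sites that give proteins with different beginnings, and the first coding bases of each are shown because transcripts paired with the upstream start were listed at 0 in every library. The start codon is in capitals, and both stretches are coding sequence on the plus strand of chromosome 3 in GRCh38, from GENCODE v29.
TAp63 alpha, from the upstream start: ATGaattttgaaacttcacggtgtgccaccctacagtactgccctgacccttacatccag
ΔNp63 alpha, from the internal start: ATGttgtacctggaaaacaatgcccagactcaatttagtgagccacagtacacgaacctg
The upstream start codon is at chr3:189631516-189631518 and the internal one at chr3:189789801-189789803, and the transcription starts of these 2 transcripts are 158233 bases apart. The longer TAp63 proteins carry an amino-terminal activation domain that ΔNp63 proteins lack. ΔNp63 is the form known from basal and squamous cells.

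The 3 TP63 transcripts paired with the upstream start were listed at 0 TPM in all 36 libraries. The 3 transcripts paired with the internal start carried between 83.0% and 100% of the summed TP63 TPM of a library. Over all libraries, ΔNp63 alpha made up 70.5% of TP63 TPM, the beta form 18.5% and the gamma form 2.06%. A predicted transcript that could not be paired with a GENCODE start made up 8.57%. The split between transcripts of 1 gene is an estimate by Salmon, and the alpha share ranged from 17.9% to 98.8% among libraries, so only the sum over a start site is used below.

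The summed level of the internal-start transcripts was 56.4, 52.2 and 56.4 TPM in the DMSO libraries at 2 h and 50.3, 41.9 and 38.8 TPM at 4 h. At 4 h it was 10.1, 11.6 and 11.7 TPM with TRAP1, 13.6, 13.3 and 14.5 TPM with JQ1, and 15.6, 14.2 and 14.0 TPM with TRAP-1-NegP. With MS78 it was 48.4, 49.5 and 47.4 TPM, and with TRAP-1-NegB 40.1, 40.1 and 37.5 TPM. The 9 libraries of TRAP1, JQ1 and TRAP-1-NegP at 4 h therefore lay below all the others, and the libraries of TRAP-1-NegB overlapped those of DMSO. The changes of TP63 described below are therefore changes in a gene whose listed transcripts start at the internal site or could not be paired.

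**Figure D1:**
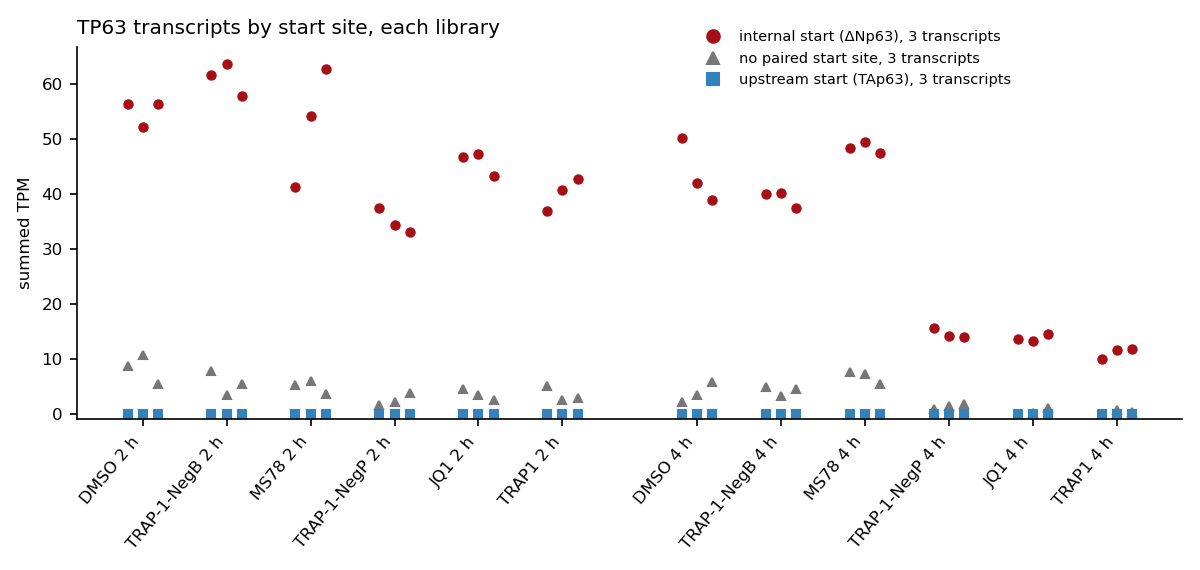
Summed TPM of TP63 transcripts in each of the 36 libraries, by start site: circles for the 3 internal-start (ΔNp63) transcripts, squares for the 3 upstream-start (TAp63) transcripts, triangles for 3 transcripts with no paired start site. The squares lie at 0 in all libraries, and the circles of TRAP-1-NegP, JQ1 and TRAP1 at 4 h lie between 10.1 and 15.6 TPM.

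The libraries matched the label of the line. SMAD4 and CDKN2A, both deleted in BxPC-3, were at 0 in all 36 libraries. Of 8 ductal epithelial markers, KRT7, KRT8, KRT18 and KRT19 had median levels of 1995 to 3273 TPM, EPCAM 114 TPM, CDH1 100.3 TPM and MUC1 17.1 TPM, while CFTR was at 0 in all 36. Markers of fibroblasts, blood, endothelium, acini and islets summed to between 29.3 and 42.5 TPM per library over 22 genes, against 8764 to 11616 TPM for the ductal list. INS, GCG and SST were at 0 in all libraries and PTPRC had at most 3 estimated counts; CD68 was the most abundant at a median of 22.5 TPM. Library totals ran from 15288688 to 26608325 estimated counts. Replicate 1 of TRAP1 at 4 h, with 1287 tested genes at 0, and replicate 1 of MS78 at 2 h stood apart from their groups, and results that rest on them are given with and without them.

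The positions of these protein-coding genes are given on GRCh38 with the GENCODE v29 annotation. TP63 lies at chr3:189631416-189897279 on the plus strand, GATA6 at chr18:22169443-22202528 (plus) and SOX9 at chr17:72121020-72126420 (plus). FOXA1 lies at chr14:37589984-37596059 (minus) and FOXA2 at chr20:22581005-22585455 (minus). ELF3 lies at chr1:202007945-202017188 (plus), GRHL2 at chr8:101492432-101669726 (plus), EHF at chr11:34621093-34661057 (plus) and OVOL1 at chr11:65787022-65797219 (plus).

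Levels of different genes were compared per transcript length, in TPM, over the 6 DMSO libraries of both times. TP63 had the highest level at 55.3 ± 9.13 TPM (SD, n = 6), followed by EHF at 42.9 ± 5.94 TPM. FOXA2 at 21.6 ± 2.93, ELF3 at 21.5 ± 2.29 and GRHL2 at 20.2 ± 1.73 TPM did not differ beyond their spread. GATA6 at 16.6 ± 1.34 and FOXA1 at 15.8 ± 1.93 TPM came next, also within each other's spread, and OVOL1 at 8.95 ± 1.52 and SOX9 at 6.24 ± 1.15 TPM were lowest. Over the same 6 libraries the mean TPM of TP63 was above that of 84.0% of the tested genes and that of SOX9 above 44.1%. The lowest estimated count of any of the 9 genes in any library was 152, for SOX9.

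All later levels are CPM, counts scaled to the TMM-adjusted library size, and changes are log2 fold changes with their SE from edgeR's quasi-likelihood test, called at a Benjamini-Hochberg adjusted p under 0.05 over all 14988 genes. A fit on library totals without TMM factors, chosen after seeing the data, is given beside each call of a factor that it changes. It moved the median log2 change of all tested genes by −0.12 at 2 h and −0.27 at 4 h with TRAP1, by −0.14 and −0.17 with TRAP-1-NegP and by −0.083 and −0.13 with JQ1. TMM factors at 4 h were 0.837 to 0.862 with TRAP1, 0.897 to 0.918 with TRAP-1-NegP, 0.934 to 0.938 with JQ1 and 1.01 to 1.03 in DMSO. Of all genes called with TRAP1, 52.4% were higher at 2 h and 47.5% at 4 h with TMM, against 30.1% and 22.1% on library totals. The same shares were 54.2% and 49.6% against 29.8% and 25.2% with TRAP-1-NegP, and 51.6% and 49.7% against 34.96% and 37.0% with JQ1. They were 80.5% against 59.9% with TRAP-1-NegB at 4 h, 40.8% against 63.5% with MS78 at 4 h and 54.6% against 34.7% for DMSO over time. For TRAP1 against TRAP-1-NegB, JQ1 or MS78 they were 45.6% to 56.0% against 20.3% to 31.1%, for TRAP1 against TRAP-1-NegP at 4 h 47.3% against 22.04%, and for JQ1 against TRAP-1-NegP at 2 h 43.8% against 62.6%. For the effect at 4 h minus 2 h they were 46.4% against 22.2% with TRAP1, 75.5% against 53.6% with TRAP-1-NegB and 45.3% against 68.4% with MS78. In whole-culture RNA, fewer cells of a type and less RNA per cell cannot be told apart.

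With TRAP1, TP63, FOXA1, FOXA2, GRHL2 and EHF fell and OVOL1 rose at both times, both with TMM scaling and on library totals. GATA6, SOX9 and ELF3 were also called higher at both times with TMM scaling, but on library totals GATA6 was called at neither time, SOX9 at 4 h only and ELF3 at 2 h only. The 9 of 9 calls with TMM stand beside 30.1% of all tested genes called at 2 h (15.7% higher and 14.3% lower) and 46.7% at 4 h (22.2% higher and 24.5% lower). At 4 h the falls of TP63 and FOXA2 and the rises of SOX9 and OVOL1 exceeded a factor of 2. The share of all tested genes with changes of that size was not counted. Leaving out single libraries left 6 to 8 calls at 2 h and 7 to 9 at 4 h, and the libraries concerned are named with each gene. Without both libraries that stood apart, 9 of 9 were called at both times with TMM. On library totals of all libraries 7 were called at each time, 2 higher and 5 lower.

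TRAP-1-NegP moved 8 of the 9 factors at each time, and JQ1 moved 8 at 2 h and 7 at 4 h. With TRAP-1-NegP, 3 rose and 5 fell at 2 h (30.3% of tested genes called, 16.4% higher and 13.9% lower), and 4 rose and 4 fell at 4 h (37.4%, with 18.6% higher and 18.9% lower). With JQ1, 4 rose and 4 fell at 2 h (28.8%, with 14.8% higher and 13.9% lower), and 3 rose and 4 fell at 4 h (48.9%, with 24.3% higher and 24.6% lower). With TRAP-1-NegP, GATA6, ELF3 and OVOL1 rose and TP63, FOXA2, GRHL2 and EHF fell at both times, while FOXA1 fell at 2 h and SOX9 rose at 4 h. With JQ1, GATA6, SOX9 and OVOL1 rose and TP63, FOXA2 and EHF fell at both times, while ELF3 rose and FOXA1 fell at 2 h and GRHL2 fell at 4 h.

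Fewer factors moved with TRAP-1-NegB and MS78. With TRAP-1-NegB, GATA6 and EHF rose and SOX9 fell at 2 h (10.9% of tested genes called, 5.08% higher and 5.87% lower), and only OVOL1 rose at 4 h (1.03%, with 0.827% higher and 0.2% lower). With MS78, ELF3 rose and FOXA1 and SOX9 fell at 2 h (15.9%, with 8.3% higher and 7.65% lower), and GATA6 and EHF rose and SOX9 fell at 4 h (15.3%, with 6.23% higher and 9.05% lower). The OVOL1 call with TRAP-1-NegB was lost without any of DMSO replicates 1 and 3 and TRAP-1-NegB replicates 2 and 3 (adjusted p 0.069 to 0.20), and on library totals (0.052). In a fit of only the MS78 and DMSO libraries at 2 h none of the 3 MS78 calls was kept, and all called genes numbered 141 higher and 178 lower against 1244 and 1146, and without both libraries that stood apart 5 were called, with GATA6 and EHF added. At 4 h only EHF was called without MS78 replicate 1.

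**Figure D2:**
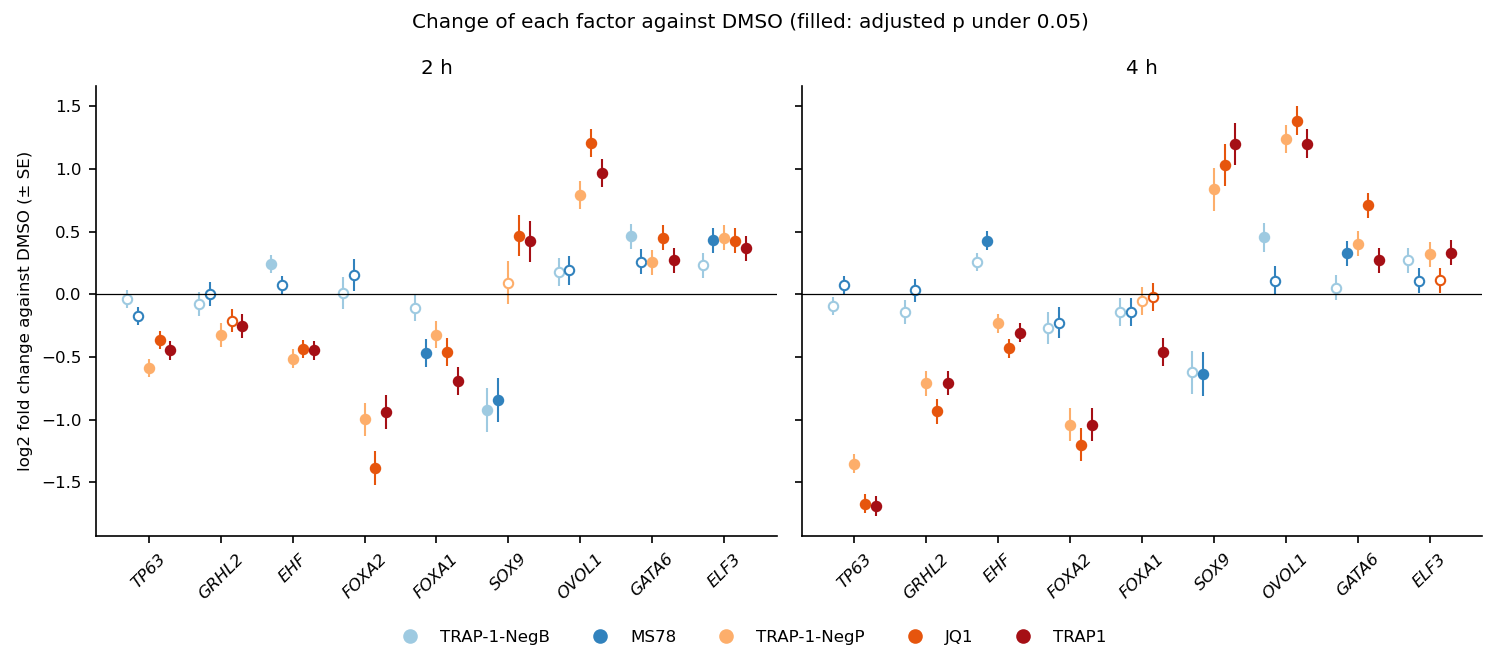
Log2 fold change of each factor against DMSO of the same time, with SE bars, for 5 compounds at 2 h (left) and 4 h (right); filled points have an adjusted p under 0.05. TP63, GRHL2 and FOXA2 lie below 0 and OVOL1 and SOX9 above 0 at 4 h with TRAP1, JQ1 and TRAP-1-NegP, while SOX9 lies below 0 with TRAP-1-NegB and MS78.

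TP63 showed the largest change of the 9 at 4 h and fell further between 2 and 4 h. In DMSO its level was 194, 187 and 183 CPM at 2 h and 166, 152 and 148 CPM at 4 h. With TRAP1 it was 132, 138 and 144 CPM at 2 h and 41.0, 52.1 and 51.1 CPM at 4 h. With JQ1 it was 149, 150.3 and 140.0 CPM at 2 h and 46.0, 46.3 and 53.8 CPM at 4 h. Every TRAP1 and JQ1 library lay below every DMSO library of its time. With TRAP-1-NegP the level was 130.4, 122 and 124 CPM at 2 h and 62.2, 59.4 and 60.6 CPM at 4 h, again below all DMSO libraries. With MS78 it was 144, 170.1 and 186 CPM at 2 h, with a low first library that stood apart, and 166, 167 and 158 CPM at 4 h. With TRAP-1-NegB it was 189, 182 and 178 CPM at 2 h and 150.2, 144 and 141 CPM at 4 h. The libraries of both these compounds overlapped those of DMSO at both times.

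At 4 h the TP63 change was −1.69 ± 0.077 with TRAP1 (adjusted p = 1.5e-25), −1.67 ± 0.077 with JQ1 (2.4e-25) and −1.35 ± 0.076 with TRAP-1-NegP (2.2e-21). These are levels 3.23, 3.18 and 2.55 times lower than in DMSO. At 2 h the changes were −0.45 ± 0.073, −0.36 ± 0.073 and −0.59 ± 0.074 in the same order. The change with TRAP-1-NegB at 4 h was −0.09 (95% interval −0.24 to 0.05) and with MS78 0.08 (−0.07 to 0.22), neither called. The TP63 calls against DMSO with TRAP1, JQ1 and TRAP-1-NegP were kept without any single library and under every other setting tried.

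TP63 fell further with TRAP1 than with TRAP-1-NegP at 4 h, by −0.34 ± 0.078 (adjusted p = 0.0013), and the libraries of the groups did not overlap. Without TRAP1 replicate 1, which stood apart, this difference was −0.23 with an adjusted p of 0.059. Without both libraries that stood apart it was −0.23 with an adjusted p of 0.012. JQ1 was also below TRAP-1-NegP at 4 h, by −0.32 ± 0.078 (adjusted p = 0.0017). Between TRAP1 and JQ1 the TP63 difference at 4 h was −0.02 with a 95% interval of −0.18 to 0.14.

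DMSO alone changed TP63 slightly over time: it was lower at 4 h than at 2 h by −0.28 ± 0.073 (adjusted p = 0.0038). Of the 9 factors, FOXA2 and ELF3 were higher and TP63 lower in DMSO at 4 h than at 2 h, beside 20.8% of tested genes called (11.4% higher and 9.45% lower). The FOXA2 difference was 0.47 ± 0.13 and the ELF3 difference 0.27 ± 0.10. On library totals ELF3 was not called (0.19, adjusted p = 0.18) and EHF (−0.27, 0.016) and OVOL1 (−0.35, 0.023) were lower. The ELF3 call was lost without DMSO replicates 1 or 2 at 2 h or replicates 2 or 3 at 4 h (adjusted p 0.12 to 0.40). Each compound effect at 4 h is therefore read against DMSO at 4 h.

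**Figure D3:**
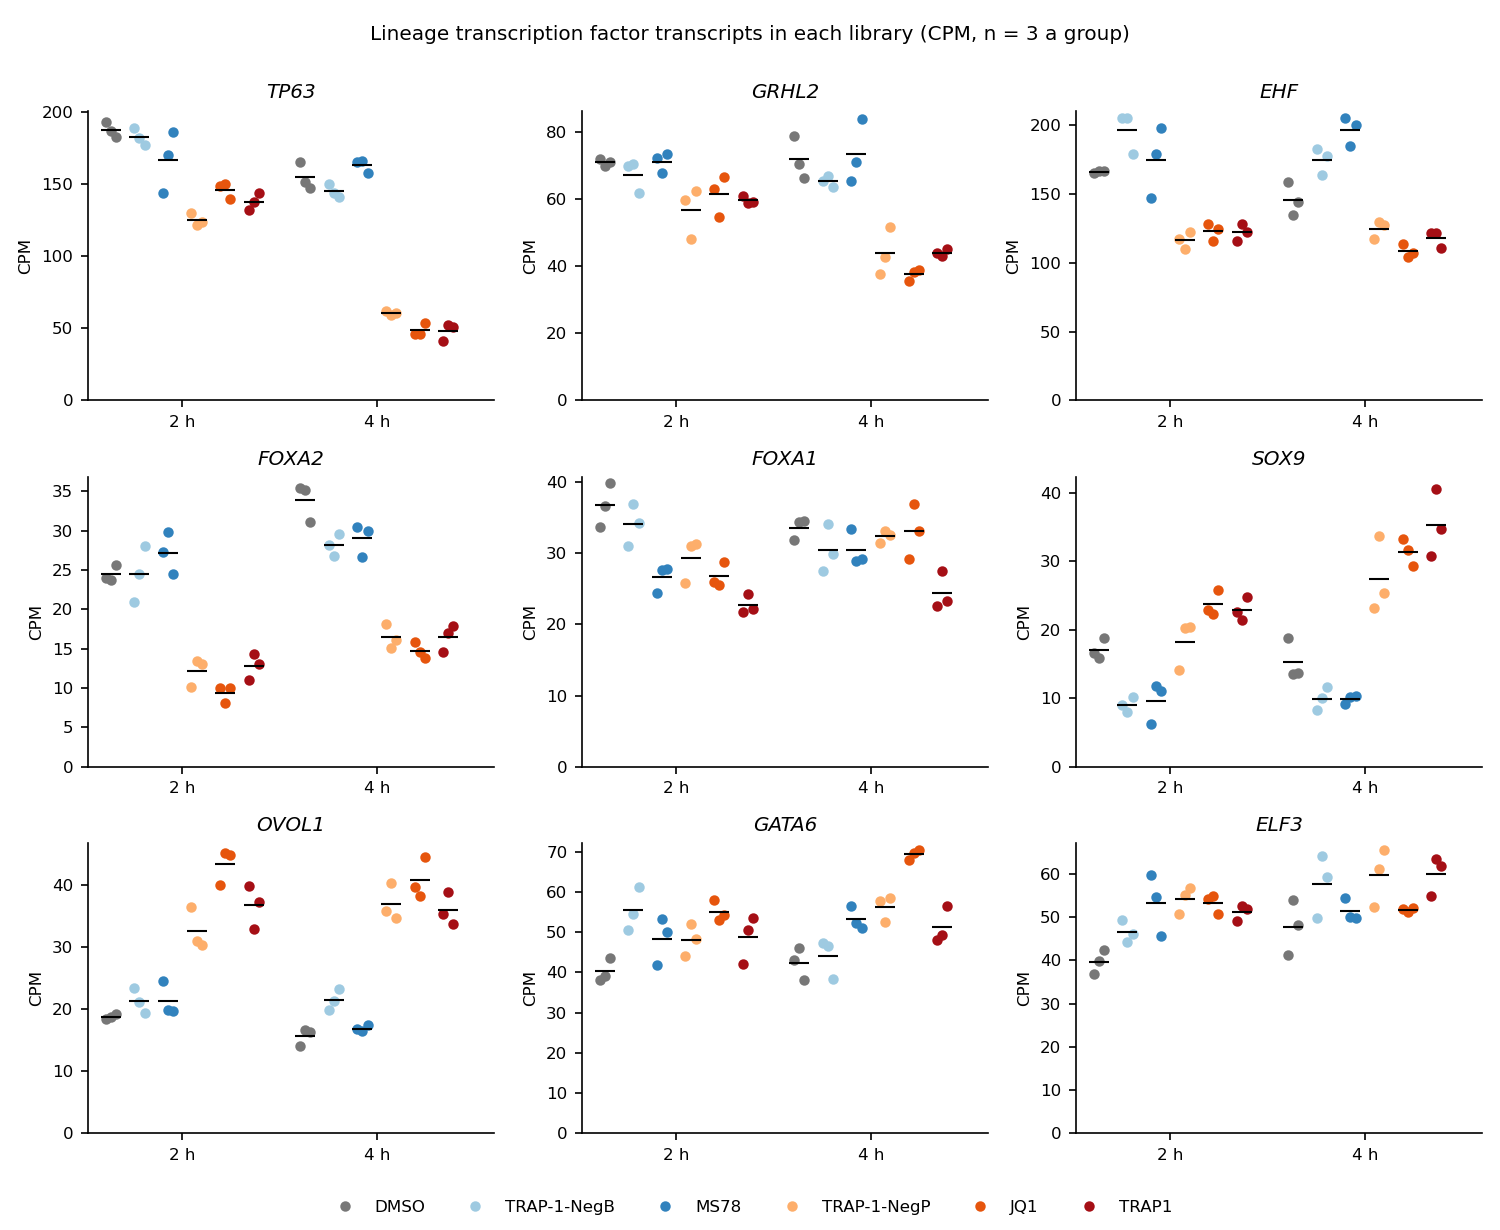
CPM of each of the 9 transcription factor genes in each of the 36 libraries (points, n = 3 a group, bars at the group means), with the 2 h groups left and the 4 h groups right in each panel. TP63 in TRAP1, JQ1 and TRAP-1-NegP lies at 41.0 to 62.2 CPM at 4 h and SOX9 in TRAP-1-NegB and MS78 at 6.18 to 11.8 CPM at either time.

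GRHL2 and OVOL1, both guardians of epithelial identity, moved in opposite directions. GRHL2, which activates E-cadherin and other junction genes, was 79.0, 70.4 and 66.4 CPM in DMSO at 4 h. It was 44.1, 43.1 and 45.1 CPM with TRAP1, 35.6, 38.4 and 39.0 CPM with JQ1 and 37.7, 42.8 and 51.7 CPM with TRAP-1-NegP. All 9 of these libraries lay below the DMSO libraries. The change was −0.71 ± 0.097 with TRAP1 (adjusted p = 1.6e-08), −0.93 ± 0.098 with JQ1 (7.4e-12) and −0.71 ± 0.097 with TRAP-1-NegP (2.5e-08). At 2 h GRHL2 was 72.0, 70.1 and 71.1 CPM in DMSO and 60.9, 59.0 and 59.3 CPM with TRAP1. The 2 h changes were smaller, at −0.25 ± 0.095 with TRAP1 (adjusted p = 0.040), −0.32 ± 0.096 with TRAP-1-NegP (0.0071) and −0.21 ± 0.095 with JQ1, which was not called (0.096). The TRAP1 call at 2 h was lost without any 1 of the 6 libraries compared (adjusted p 0.070 to 0.12). The TRAP-1-NegP call was lost without its replicate 2 (0.11). With JQ1 GRHL2 was called at 2 h without JQ1 replicate 3 (−0.28, adjusted p = 0.047) and on library totals (−0.29, 0.015). With MS78 and TRAP-1-NegB GRHL2 overlapped DMSO at both times, at group means of 65.4 to 73.5 CPM.

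OVOL1, a zinc finger repressor of mesenchymal genes, was 18.4, 18.7 and 19.3 CPM in DMSO at 2 h and 14.0, 16.7 and 16.3 CPM at 4 h. TRAP1 libraries stood at 39.9, 33.0 and 37.4 CPM at 2 h and 35.4, 38.9 and 33.8 CPM at 4 h. JQ1 libraries stood at 40.1, 45.2 and 44.9 CPM at 2 h and 39.8, 38.3 and 44.6 CPM at 4 h. OVOL1 was thus already near its 4 h level after 2 h with both compounds. With TRAP-1-NegP it was 36.4, 31.1 and 30.4 CPM at 2 h and 35.8, 40.4 and 34.7 CPM at 4 h. All of these libraries lay above all DMSO libraries. The changes at 2 h were 0.97 ± 0.11 with TRAP1 (adjusted p = 5.3e-10), 1.21 ± 0.11 with JQ1 (5.6e-13) and 0.79 ± 0.11 with TRAP-1-NegP (1.0e-07). At 4 h they were 1.20 ± 0.12 (3.7e-13), 1.39 ± 0.12 (2.6e-15) and 1.24 ± 0.12 (2.9e-13) in that order. With MS78 the changes of 0.19 at 2 h and 0.11 at 4 h were not called. JQ1 exceeded TRAP-1-NegP at 2 h by 0.41 ± 0.11 (adjusted p = 0.0073), a call lost without TRAP-1-NegP replicate 3 (0.052).

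FOXA2, a pioneer factor of foregut and pancreas, fell at both times with TRAP1, JQ1 and TRAP-1-NegP. It was 23.9, 23.7 and 25.6 CPM in DMSO at 2 h and 35.4, 35.2 and 31.0 CPM at 4 h. With TRAP1 it was 10.999, 14.3 and 13.0 CPM at 2 h and 14.5, 17.0 and 17.9 CPM at 4 h. With JQ1 it was 9.95, 8.14 and 9.96 CPM at 2 h and 15.9, 14.6 and 13.8 CPM at 4 h. No TRAP1 or JQ1 library reached the lowest DMSO library of its time. With TRAP-1-NegP it was 10.2, 13.4 and 13.1 CPM at 2 h and 18.2, 15.1 and 16.1 CPM at 4 h, likewise below DMSO. The changes at 2 h were −0.94 ± 0.13 with TRAP1 (adjusted p = 9.0e-08), −1.39 ± 0.14 with JQ1 (3.5e-12) and −0.997 ± 0.13 with TRAP-1-NegP (3.0e-08). At 4 h they were −1.04 ± 0.13 (1.6e-09), −1.20 ± 0.13 (3.2e-11) and −1.04 ± 0.13 (3.0e-09). FOXA2 had group means of 24.5 CPM with TRAP-1-NegB and 27.2 CPM with MS78 at 2 h. At 4 h it was 28.1, 26.8 and 29.6 CPM with TRAP-1-NegB and 30.5, 26.7 and 29.9 CPM with MS78, below all DMSO libraries, but none of these 4 changes was called (adjusted p 0.25 to 0.99). The FOXA2 values at 2 h with TRAP1 and JQ1 differed by 0.45 ± 0.14 (adjusted p = 0.078), a difference called by DESeq2 and without both libraries that stood apart.

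FOXA1, the paralog of FOXA2, fell with 4 compounds at 2 h and with TRAP1 alone at 4 h. It was 33.7, 36.6 and 39.7 CPM in DMSO at 2 h and 31.9, 34.3 and 34.4 CPM at 4 h. Its level with TRAP1 was 21.7, 24.3 and 22.1 CPM at 2 h and 22.5, 27.5 and 23.3 CPM at 4 h, below all DMSO libraries at both times. Its level with JQ1 was 25.9, 25.5 and 28.8 CPM at 2 h and 29.1, 36.8 and 33.1 CPM at 4 h. JQ1 libraries lay below DMSO at 2 h and overlapped DMSO at 4 h. With TRAP-1-NegP it was 25.8, 31.0 and 31.3 CPM at 2 h and 31.4, 33.0 and 32.6 CPM at 4 h, with overlap at 4 h. The change with TRAP1 was −0.69 ± 0.11 at 2 h (adjusted p = 1.3e-06) and −0.46 ± 0.11 at 4 h (5.2e-04). With JQ1 it was −0.46 ± 0.11 at 2 h (8.4e-04) and −0.02 at 4 h (95% interval −0.24 to 0.20, not called). With TRAP-1-NegP it was −0.32 ± 0.11 at 2 h (0.021) and −0.05 at 4 h (−0.27 to 0.17, not called). The TRAP-1-NegP call at 2 h was lost without DMSO replicates 2 or 3 or TRAP-1-NegP replicate 1 (0.050 to 0.15). MS78 lowered FOXA1 at 2 h by −0.47 ± 0.11 (0.0016), and −0.39 without the library that stood apart.

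At 4 h FOXA1 was lower with TRAP1 than with each of the other 4 compounds. The difference was −0.44 ± 0.11 against JQ1 (adjusted p = 0.0021), −0.41 ± 0.11 against TRAP-1-NegP (0.0079), −0.32 ± 0.11 against MS78 (0.014) and −0.32 ± 0.11 against TRAP-1-NegB (0.016). The difference from JQ1 was kept without any single library. The difference from TRAP-1-NegP was not called without TRAP1 replicate 1 (−0.35, adjusted p = 0.061), and −0.35 with an adjusted p of 0.035 without both libraries that stood apart. The difference from MS78 was lost without TRAP1 replicate 1 (0.057) or MS78 replicate 1 (0.10). The difference from TRAP-1-NegB was lost without TRAP1 replicates 1 or 3 or TRAP-1-NegB replicate 2 (0.058 to 0.11), and without both libraries that stood apart (0.064).

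GATA6 was called higher in 8 of the 10 comparisons with DMSO and lower in none with TMM, but 4 of the 8, those with TRAP1 and TRAP-1-NegP, were not called on library totals. Its level was 38.1, 39.2 and 43.5 CPM in DMSO at 2 h and 43.0, 46.1 and 38.2 CPM at 4 h. JQ1 libraries held 57.9, 53.1 and 54.3 CPM at 2 h and 67.9, 69.8 and 70.4 CPM at 4 h. TRAP1 libraries held 42.1, 50.6 and 53.5 CPM at 2 h and 47.9, 49.2 and 56.5 CPM at 4 h. All JQ1 libraries lay above DMSO, and TRAP1 libraries overlapped DMSO at 2 h. The change with JQ1 was 0.45 ± 0.10 at 2 h (adjusted p = 3.1e-04) and 0.71 ± 0.10 at 4 h (2.8e-08). With TRAP1 it was 0.27 ± 0.10 at 2 h (0.032) and 0.27 ± 0.10 at 4 h (0.023) with TMM, but 0.15 (0.30) and 0.00069 (0.998) on library totals. In TPM, GATA6 at 4 h was 15.2 ± 1.06 with TRAP1 and 16.2 ± 1.53 in DMSO, the opposite order, with overlapping libraries. TRAP1 was below JQ1 at 4 h by −0.44 ± 0.099 (5.3e-04), a difference kept without any single library. The TRAP1 call at 2 h was lost without DMSO replicates 1 or 2 or TRAP1 replicates 2 or 3 (0.082 to 0.25), and that at 4 h without DMSO replicates 1 or 3 or TRAP1 replicate 3 (0.053 to 0.19). With TRAP-1-NegP the change was 0.26 ± 0.10 at 2 h (0.048) and 0.41 ± 0.10 at 4 h (9.2e-04), against 0.12 (0.44) and 0.23 (0.071) on library totals. The first of these was lost without DMSO replicates 1 or 2 or TRAP-1-NegP replicates 2 or 3 (0.11 to 0.25), with size factors, with DESeq2 and without a count filter. TRAP-1-NegB raised GATA6 by 0.46 ± 0.10 at 2 h (7.0e-04), from libraries at 50.5, 54.5 and 61.3 CPM, and its value at 4 h was 0.05 (−0.15 to 0.26, not called). MS78 raised it by 0.33 ± 0.10 at 4 h (0.018), a call lost without DMSO replicate 3 or MS78 replicate 1 (0.10 each).

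SOX9 separated the compounds into groups that moved it in opposite directions. It was 16.6, 15.9 and 18.9 CPM in DMSO at 2 h and 18.8, 13.6 and 13.7 CPM at 4 h. With TRAP1 it was 22.6, 21.4 and 24.8 CPM at 2 h and 30.7, 40.6 and 34.8 CPM at 4 h. With JQ1 it was 22.9, 22.4 and 25.9 CPM at 2 h and 33.3, 31.6 and 29.3 CPM at 4 h. These libraries all lay above DMSO. With TRAP-1-NegP it was 14.1, 20.2 and 20.5 CPM at 2 h, overlapping DMSO, and 23.2, 33.7 and 25.4 CPM at 4 h, above DMSO. With TRAP-1-NegB it was 9.01, 8.01 and 10.2 CPM at 2 h and 8.23, 9.99 and 11.6 CPM at 4 h. With MS78 it was 6.18, 11.8 and 11.1 CPM at 2 h and 9.17, 10.1 and 10.4 CPM at 4 h. The libraries of TRAP-1-NegB and MS78 all lay below the DMSO libraries of their time.

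At 4 h SOX9 rose by 1.20 ± 0.17 with TRAP1 (adjusted p = 2.7e-08), 1.03 ± 0.17 with JQ1 (7.6e-07) and 0.84 ± 0.17 with TRAP-1-NegP (5.6e-05). At 2 h it rose by 0.42 ± 0.17 with TRAP1 (0.048) and 0.47 ± 0.17 with JQ1 (0.027), and its value with TRAP-1-NegP was 0.09 (−0.25 to 0.43, not called). SOX9 fell by −0.92 ± 0.17 with TRAP-1-NegB (1.1e-04) and −0.84 ± 0.17 with MS78 (3.7e-04) at 2 h. At 4 h it fell by −0.63 ± 0.18 with MS78 (0.0083), and with TRAP-1-NegB the value was −0.62 ± 0.18 and not called (0.069). TRAP1 was above TRAP-1-NegB by 1.34 ± 0.17 at 2 h and 1.83 ± 0.17 at 4 h, and above MS78 by 1.26 ± 0.17 and 1.84 ± 0.17. These 4 differences (adjusted p 3.2e-13 to 8.3e-08) were kept without any single library. The 2 h rises were less stable: that with TRAP1 was lost with DESeq2 (0.054), length-scaled counts (0.056) and without DMSO replicates 1 or 2 or any TRAP1 library (0.064 to 0.18) and on library totals (0.20), and that with JQ1 without DMSO replicates 1 or 2 or JQ1 replicate 3 (0.080 to 0.13) and on library totals (0.093). The MS78 fall at 2 h was −0.57 (adjusted p = 0.012) without both libraries that stood apart. The MS78 fall at 4 h was lost without DMSO replicate 1 (0.13) or MS78 replicate 1 (0.053).

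ELF3 and EHF, the ETS factors, also moved apart. ELF3, which acts in epithelial differentiation and inflammation, was 36.7, 39.8 and 42.3 CPM in DMSO at 2 h. It was 49.2, 52.5 and 51.9 CPM with TRAP1, 54.1, 54.8 and 50.7 CPM with JQ1, and 50.7, 55.2 and 56.6 CPM with TRAP-1-NegP, above all DMSO libraries. The 2 h changes were 0.37 ± 0.10 (adjusted p = 0.0029), 0.43 ± 0.10 (6.0e-04) and 0.45 ± 0.10 (2.8e-04). MS78, at 59.8, 54.6 and 45.6 CPM, was also above DMSO at 2 h by 0.43 ± 0.10 (0.0013). At 4 h DMSO was 41.2, 53.9 and 48.1 CPM, and TRAP1 at 54.9, 63.5 and 61.8 CPM was higher by 0.33 ± 0.10 (0.0044) with TMM, but not called on library totals (0.063, adjusted p = 0.62). In TPM, ELF3 at 4 h was 21.8 ± 1.39 with TRAP1 and 22.4 ± 2.79 in DMSO, the opposite order, with overlapping libraries. TRAP-1-NegP was higher by 0.32 ± 0.10 (0.0078) with overlapping libraries and not called on library totals (0.15, 0.23), while JQ1 at 51.8, 51.1 and 52.0 CPM was not called (0.11, 95% interval −0.09 to 0.31). The call with TRAP1 at 4 h was lost without DMSO replicate 1 (0.083), and that with TRAP-1-NegP without DMSO replicate 1 (0.097) or TRAP-1-NegP replicate 3 (0.075).

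EHF, which restrains invasion in several carcinomas, was 165, 167 and 167 CPM in DMSO at 2 h and 159, 135 and 144 CPM at 4 h. EHF with TRAP1 was 116, 128 and 122 CPM at 2 h and 122, 122 and 110.4 CPM at 4 h. EHF with JQ1 was 128, 116 and 125 CPM at 2 h and 113, 104 and 107 CPM at 4 h, and with TRAP-1-NegP 117, 110.0 and 122 CPM and 117, 129.5 and 127 CPM. All lay below DMSO of the same time. The changes were −0.45 ± 0.075 (adjusted p = 3.4e-06), −0.44 ± 0.075 (5.1e-06) and −0.51 ± 0.075 (2.2e-07) at 2 h with TRAP1, JQ1 and TRAP-1-NegP. At 4 h they were −0.31 ± 0.075 (5.9e-04), −0.43 ± 0.076 (3.1e-06) and −0.23 ± 0.075 (0.012), the last lost without DMSO replicate 1 (0.14) or TRAP-1-NegP replicate 1 (0.087). TRAP-1-NegB and MS78 went the other way. EHF was 205, 205 and 179 CPM with TRAP-1-NegB at 2 h, a rise of 0.24 ± 0.074 (0.022), and 205, 185 and 199.7 CPM with MS78 at 4 h, a rise of 0.43 ± 0.075 (3.2e-05). The TRAP-1-NegB call was lost without DMSO replicate 3 or TRAP-1-NegB replicates 1 or 2 (0.056 to 0.12). At 4 h its value with TRAP-1-NegB was 0.26 ± 0.075, not called (0.080), and called without DMSO replicate 1 (0.33, adjusted p = 0.034).

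The compounds were also compared with each other in 10 pairs at the same dose and time. Against TRAP-1-NegP, TRAP1 differed in none of the 9 factors at 2 h (0.801% of tested genes called, 0.527% higher and 0.274% lower) and was lower in TP63 and FOXA1 at 4 h (15.3%, with 7.25% higher and 8.09% lower). Against JQ1, TRAP1 differed in none at 2 h (1.99%, with 1.1% higher and 0.887% lower) and was lower in GATA6 and FOXA1 at 4 h (27.4%, with 12.5% higher and 14.9% lower). At an unadjusted p under 0.05, edgeR gave 1 factor at 2 h against TRAP-1-NegP (FOXA1) and 3 against JQ1 (FOXA1, FOXA2 and OVOL1), and DESeq2 called 1 in each (FOXA1 and FOXA2). The count over all genes between TRAP1 and TRAP-1-NegP at 2 h, 79 higher and 41 lower, was 450 and 662 with only the compared groups and 217 and 246 without both libraries that stood apart. Without both libraries that stood apart, calls gained by TRAP1 at 4 h were SOX9 against TRAP-1-NegP (0.46, adjusted p = 0.027), ELF3 against JQ1 (0.29, 0.018) and MS78 (0.26, 0.022) and GATA6 against TRAP-1-NegB (0.26, 0.027). At 2 h they were FOXA1 against TRAP-1-NegP (−0.37, adjusted p = 0.038) and MS78 (−0.32, 0.047) and FOXA2 against JQ1 (0.45, 0.037). Against TRAP-1-NegB, TRAP1 was higher in SOX9 and OVOL1 and lower in TP63, FOXA1, FOXA2 and EHF at 2 h (20.7%, with 11.6% higher and 9.13% lower), and lower in GRHL2 as well at 4 h (46.1%, with 22% higher and 24.2% lower). On library totals TRAP1 was also below TRAP-1-NegB in GATA6 (−0.33, 0.013) and GRHL2 (−0.32, 0.010) at 2 h and below JQ1 in OVOL1 at 4 h (−0.32, 0.017). Against MS78, TRAP1 was higher in SOX9 and OVOL1 and lower in TP63, FOXA2, GRHL2 and EHF at 2 h (22.6%, with 12% higher and 10.6% lower), and lower in FOXA1 as well at 4 h (49.3%, with 23.9% higher and 25.4% lower). The GRHL2 call against MS78 at 2 h was lost without MS78 replicates 1 or 3 or any TRAP1 library (0.079 to 0.11), with length-scaled counts (0.055) and with only the compared groups (0.091). That of TP63 was lost without MS78 replicate 3 (0.074) and with only the compared groups (0.12). On library totals TRAP1 was also below MS78 in FOXA1 at 2 h (−0.32, 0.032) and in GATA6 at 4 h (−0.40, 8.0e-04). JQ1 against TRAP-1-NegP was higher in TP63 and OVOL1 at 2 h (12.9%, with 5.65% higher and 7.26% lower), and at 4 h higher in GATA6 and lower in TP63 and EHF (25.7%, with 12.9% higher and 12.9% lower). A missed call does not show that compounds act alike: the 95% interval of the SOX9 difference between TRAP1 and TRAP-1-NegP at 4 h was 0.04 to 0.69, and it was called without TRAP-1-NegP replicate 2 (0.54, adjusted p = 0.041). That of GRHL2 for the same pair was −0.19 to 0.20. Without TRAP1 replicate 1 neither TP63 nor FOXA1 was called against TRAP-1-NegP at 4 h. The calls of JQ1 against TRAP-1-NegP at 2 h fell to 1 without JQ1 replicates 1 or 2 or TRAP-1-NegP replicate 2, and to 0 without TRAP-1-NegP replicate 3. Those at 4 h numbered 1 without JQ1 replicate 2 or TRAP-1-NegP replicate 2 and 5 without TRAP-1-NegP replicate 1, and EHF was not called on library totals (−0.15, 0.18).

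The change of each effect between 2 and 4 h was tested as a difference of differences. Here higher means that the 4 h effect minus the 2 h effect was positive. This includes falls that faded, as for FOXA1 with JQ1 and EHF with TRAP-1-NegP. Beside 22% of tested genes called (10.2% higher and 11.8% lower), the TRAP1 effect at 4 h differed from that at 2 h for TP63 and GRHL2, which were lower, and SOX9, which was higher. For TRAP-1-NegP (23.2%, with 11% higher and 12.2% lower) TP63 and GRHL2 were again lower and SOX9, EHF and OVOL1 higher, and for JQ1 (26%, with 13.2% higher and 12.8% lower) TP63 and GRHL2 were lower and FOXA1 higher. For MS78 (15.2%, with 6.89% higher and 8.33% lower) EHF was higher, and for TRAP-1-NegB (2.48%, with 1.87% higher and 0.607% lower) no factor was called, with the largest value at −0.41 for GATA6 (adjusted p = 0.14). The 5 calls with TRAP-1-NegP became 1 without DMSO replicate 3 at 2 h or TRAP-1-NegP replicate 2 at 4 h, and 4 of the 5, all but TP63, were lost without at least 1 library. That of EHF was lost in 9 of the 12 edgeR refits that each left out 1 library (adjusted p up to 0.16). The FOXA1 call with JQ1 was lost without DMSO replicates 2 or 3 at 2 h or replicate 1 at 4 h, JQ1 replicates 1 or 2 at 2 h or replicate 2 at 4 h (0.058 to 0.12), and that of SOX9 with TRAP1 without DMSO replicates 2 or 3 at 4 h (0.056 each). On library totals SOX9 with TRAP1 (0.63, 0.053), FOXA1 with JQ1 (0.39, 0.059) and EHF (0.25, 0.13) and OVOL1 (0.41, 0.052) with TRAP-1-NegP were not called, and ELF3 with JQ1 (−0.36, 0.046) and TP63 with MS78 (0.35, 0.023) were. The EHF call with MS78 was lost without DMSO replicate 2 at 4 h (0.056) or MS78 replicate 1 at 2 h (0.079). The further fall of TP63 was −1.24 ± 0.11 with TRAP1 (2.5e-13), −1.31 ± 0.11 with JQ1 (5.4e-14) and −0.77 ± 0.11 with TRAP-1-NegP (1.8e-07). The values of FOXA2 (−0.10 with TRAP1, −0.04 with TRAP-1-NegP and 0.19 with JQ1) were not called.

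Over the 12 group means of log2 CPM, which share their scaling and libraries, TP63 and GRHL2 followed each other most closely (Pearson r = 0.96, n = 12 groups). FOXA2 and OVOL1 (r = −0.93) and SOX9 and EHF (r = −0.91) ran most opposite, and FOXA1 and FOXA2 had r = 0.48. Among 10325 genes with a mean of at least 5 CPM, the patterns most like TP63 were those of IL7R, GIMAP4 and TGFBR2 (each 0.99). For GRHL2 they were LOC339803, ZMYND8 and UBE2Q1 (each 0.99), for OVOL1 FZD7 (0.98), KLF2 (0.97) and MFSD2A (0.97), and for FOXA2 GPANK1 (0.97), PHF23 (0.97) and BCAR3 (0.96). For SOX9 they were SP6, TXNDC12 and TOB2 (each 0.96), and for EHF ZNF780A (0.97), ARTN (0.96) and TSHZ1 (0.95). ELF3 was most like EFTUD2 (0.93), CORO7 (0.93) and DPAGT1 (0.92), GATA6 like ARFIP1, DBF4 and TOPORS (each 0.91), and FOXA1 like ZNF530 (0.90), ZBTB6 (0.85) and KLF6 (0.84). These values were ranked over many genes on 12 points and are given as a description.

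The lists below are set beside the share of all tested genes called at 4 h. With TMM it was 22.2% higher and 24.5% lower with TRAP1, 24.3% and 24.6% with JQ1 and 18.6% and 18.9% with TRAP-1-NegP. On library totals, 1687 of the 14988 tested genes were called higher and 5954 lower with TRAP1. The same counts were 2778 and 4723 with JQ1, and 1526 and 4533 with TRAP-1-NegP. List counts on library totals are to be read beside these, where most calls of all tested genes were lower. Known p63 targets and squamous genes were more often called higher than lower with TRAP1, where TP63 was lower. The counts do not take into account whether p63 activates or represses a gene, and a link to the TP63 change was not tested. Of 32 such genes, all tested, 25 rose and 3 fell with TRAP1 at 4 h, with a median log2 change of 0.39, against −0.022 over all tested genes. On library totals 15 rose and 6 fell. KRT5, a basal keratin, rose from 3919 ± 151 to 7016 ± 232 CPM (0.84 ± 0.053, adjusted p = 1.3e-19). SFN, the cell cycle inhibitor 14-3-3 sigma, rose by 1.63 ± 0.089 (2.6e-15). The 3 that fell were FAT2, an atypical cadherin (−1.60 ± 0.11, 6.9e-19), WNT10A (−0.78 ± 0.22, 0.0025) and BCL9L (−0.17 ± 0.067, 0.031). With JQ1 at 4 h 14 rose and 7 fell (median 0.05) and with TRAP-1-NegP 10 rose and 5 fell (0.10), where TP63 also fell. On library totals these counts were 11 and 11 with JQ1 and 4 and 10 with TRAP-1-NegP. KRT5 was −0.15 with JQ1 (0.016) and 0.09 with TRAP-1-NegP (0.17, not called). With TMM, TRAP1 exceeded TRAP-1-NegP in 20 of the 32 and was below it in 2 (median 0.32), beside 7.25% and 8.09% of all tested genes. KRT5 was higher by 0.75 ± 0.052 and SFN by 1.36 ± 0.088. Library totals gave 645 of all tested genes higher and 2281 lower for this pair, against 1087 and 1213 with TMM. The counts of this list for the pair on library totals are not reported here.

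**Figure D4:**
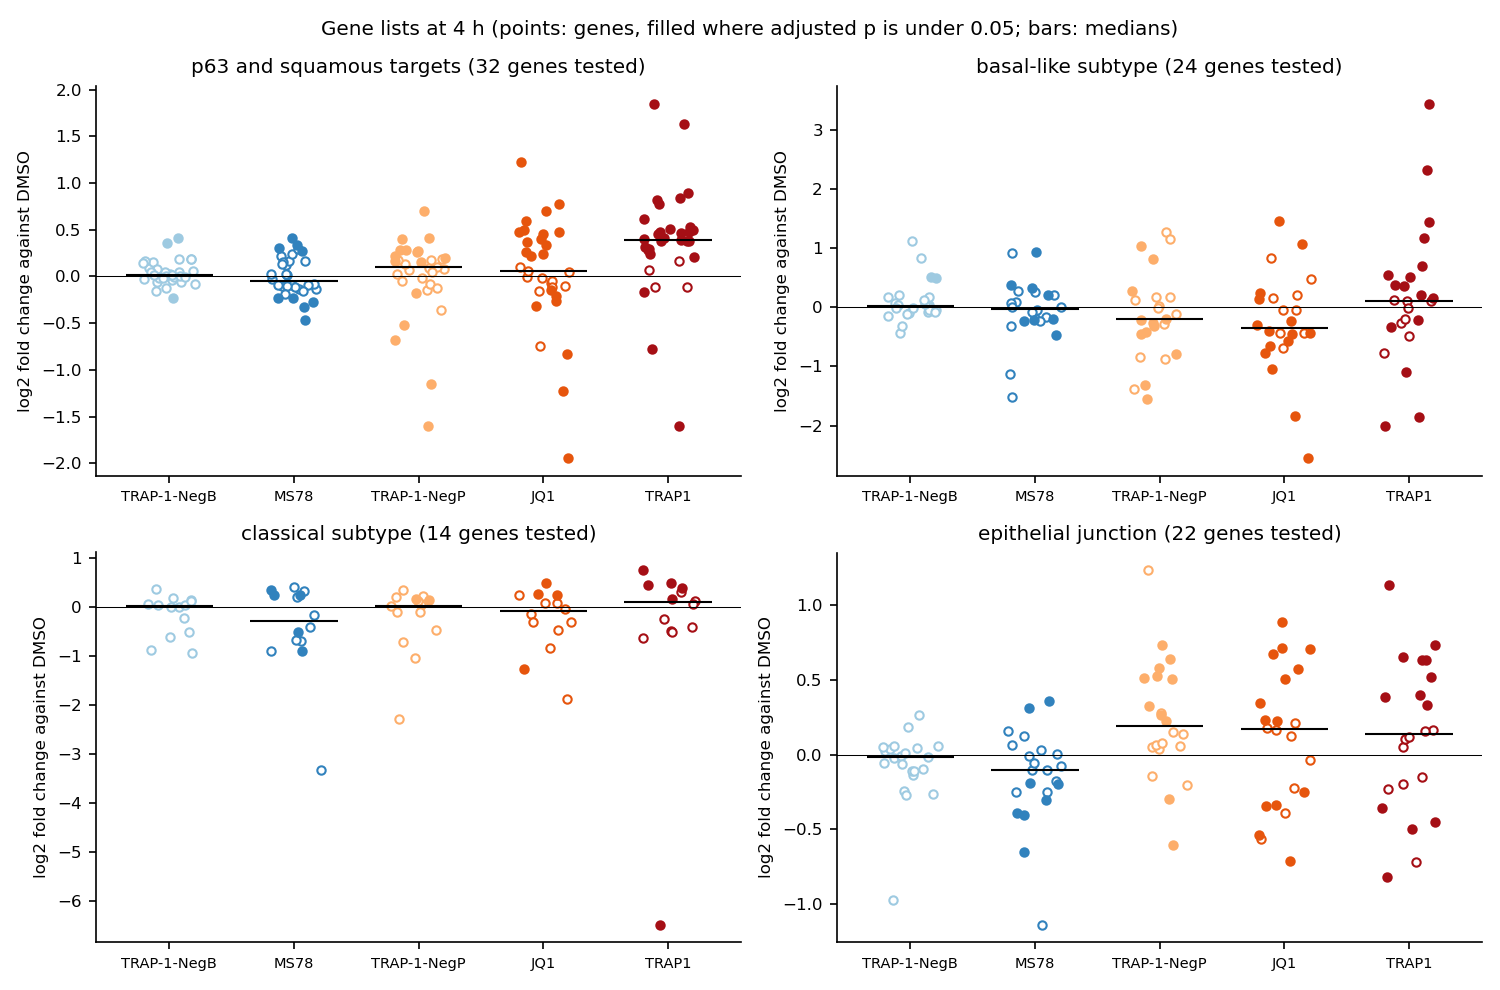
Log2 fold change against DMSO at 4 h of the tested genes of 4 lists, for 5 compounds (points are genes, filled at an adjusted p under 0.05; bars are list medians; the vertical scales differ). The median of the p63 and squamous targets is 0.39 with TRAP1 and 0.05 with JQ1; the lowest point of the classical panel is PRR15L, with no count in the TRAP1 libraries, whose fitted value depends on the prior count.

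Genes of the basal-like and classical forms of pancreatic cancer were called in either direction. Of 24 tested basal-like genes 11 rose and 5 fell with TRAP1 at 4 h (median 0.11), 4 rose and 11 fell with JQ1 (−0.35) and 3 rose and 9 fell with TRAP-1-NegP (−0.20). On library totals 6 rose and 7 fell with TRAP1, 2 and 12 with JQ1 and 2 and 15 with TRAP-1-NegP. AREG, a ligand of the EGF receptor, rose from 56.7 ± 6.12 to 282 ± 12.6 CPM with TRAP1 (2.32 ± 0.077, adjusted p = 9.9e-32) and by 1.07 with JQ1 (8.8e-18). KRT15 rose by 1.18 ± 0.12 with TRAP1 (6.1e-12) and fell by −0.58 with JQ1 (1.2e-04). DHRS9, a retinol dehydrogenase family member, fell by −1.86 ± 0.066 with TRAP1 (1.3e-30) and −2.55 with JQ1 (6.2e-36). Of 14 tested classical genes 5 rose and 1 fell with TRAP1 (median 0.10), with AGR2, a disulfide isomerase of mucus-producing cells, higher by 0.75 ± 0.062 (2.3e-15) and TFF1, a secreted trefoil peptide, by 0.49 ± 0.16 (0.011). Without DMSO replicates 1 or 3 only 3 classical genes rose, and on library totals 1 rose and 2 fell. The gene that fell, PRR15L, had 0.536 ± 0.179 CPM in DMSO and no count with TRAP1, and no classical gene was called lower under a stricter count filter. With JQ1 3 classical genes rose and 1 fell (median −0.09), and on library totals 1 and 2.

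Genes of epithelial junctions, many of them targets of GRHL2, were likewise called in either direction. Of 22 tested, 9 rose and 4 fell with TRAP1 at 4 h (median 0.14), 9 and 5 with JQ1 (0.17), and 9 and 2 with TRAP-1-NegP (0.19). CDH1, E-cadherin, rose from 268 ± 13.0 to 445 ± 22.8 CPM with TRAP1 (0.73 ± 0.049, adjusted p = 1.2e-18), by 0.89 with JQ1 (4.1e-22) and by 0.58 with TRAP-1-NegP (1.9e-14). CLDN4, a tight junction claudin, rose by 1.13 ± 0.073 with TRAP1 (2.8e-18). The splicing regulators ESRP1 (−0.50 ± 0.077, 2.7e-07) and ESRP2 (−0.36 ± 0.096, 0.0015) fell, as did the polarity gene CRB3 (−0.45 ± 0.17, 0.024). TJP3, the fourth, was at 1.60 ± 0.267 CPM against 2.82 ± 0.231 in DMSO (0.049). Without DMSO replicate 2 or 3 only 2 of the 22 fell with TRAP1, and on library totals 7 rose and 8 fell.

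Relatives and partners of the 9 factors were called higher and lower in equal number with TRAP1. Of 40 listed, 24 were tested and 7 rose and 7 fell with TRAP1 at 4 h (4 and 7 on library totals), and ONECUT1, GATA5, NEUROG3 and SOX17 were at 0 in all 36 libraries. OVOL2, the paralog of OVOL1, fell from 8.61 ± 0.720 to 0.912 ± 0.410 CPM with TRAP1 (−3.25 ± 0.36, adjusted p = 6.7e-11) while OVOL1 rose. It fell by −3.04 with JQ1 (2.6e-10) and −2.45 with TRAP-1-NegP (4.4e-08). SPDEF, an ETS factor of secretory epithelium, fell by −2.27 ± 0.19 with TRAP1 (4.2e-15), −2.23 with JQ1 (6.8e-15) and −2.01 with TRAP-1-NegP (3.4e-13). SOX2, a foregut and squamous factor, fell by −1.93 ± 0.22 with TRAP1 (1.0e-10), further than with TRAP-1-NegP (difference −1.15 ± 0.22, 1.2e-04). BARX2 fell by −0.66 ± 0.11 (1.2e-06), and KLF4 rose by 1.04 ± 0.10 (1.5e-12), TFAP2A by 0.48 ± 0.11 (1.8e-04) and SOX15 by 0.45 ± 0.093 (6.2e-05).

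Of 6 tested factors of the mesenchymal transition, SNAI1 and SNAI2 rose with TRAP1 at 4 h and none fell. ZEB1, SNAI3 and TWIST1 were at 0 in 17, 12 and 4 of the 36 libraries, so no median is given. SNAI1 rose from 0.455 ± 0.366 to 5.55 ± 0.616 CPM (3.59 ± 0.48, adjusted p = 7.5e-09), by 3.50 with JQ1 (1.2e-08) and by 3.54 with TRAP-1-NegP (1.8e-08). SNAI2, a known p63 target in basal cells, rose from 59.7 ± 5.87 to 102 ± 3.81 CPM with TRAP1 (0.77 ± 0.084, 2.2e-11) and by 0.40 with JQ1 (6.9e-05), and its value with TRAP-1-NegP was −0.07 (0.57, not called). Along with these lists, 6 of 7 tested ductal markers rose with TRAP1 at 4 h (5 on library totals), to a summed 11378 to 11616 TPM from 9951 to 10809 TPM in DMSO. Of 11 tested markers of other cells 4 rose and 2 fell (1 without both libraries that stood apart), on library totals 2 and 2, and their sum was 30.9 to 35.9 TPM against 35.2 to 39.2 TPM in DMSO. The part of these marker levels in the results above was not tested.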

How the data were processed

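PolyA RNA of 36 BxPC-3 libraries was sequenced in reads of 150 bases and quantified with Salmon 1.10.3 in nf-core/rnaseq 3.18.0 on hg38, per the submitters' processing notes. Which annotation release they used is not stated in what was read here. The authors deposited estimated counts per gene, length-scaled estimated counts and TPM values per gene and transcript. Estimated counts were rounded and filterByExpr, at a minimum count of 10, kept 14988 of 29744 genes. All libraries were fitted together with 12 group means and no covariate, with TMM scaling and robust quasi-likelihood tests in edgeR 4.0.16 (R 4.3.3, limma 3.58.1). Tests were two-sided, with Benjamini-Hochberg adjustment over all tested genes in each of 26 comparisons and calls at 0.05. The SE is the log2 fold change divided by the square root of F, intervals cover 95%, and the common biological coefficient of variation was 0.135. Totals per library had a median of 20328928 estimated counts. TPM served for levels between genes, TP63 start sites, marker sums and the GATA6 and ELF3 levels quoted beside their calls. On counts simulated for TRAP1 against DMSO at 4 h with 14069 genes tested, the edgeR test called 45 of 100 genes changed 1.5-fold, 100 of 100 changed 3-fold and 2 unchanged genes. Only these genes were changed, equally up and down, with 1 spread for all genes, whereas 7000 genes were called in the data. The simulated rates therefore need not hold for the data.

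The 9 genes and all gene lists were chosen with earlier results of these data known. From each list, up to 4 genes a direction were named by adjusted p among those called with TRAP1 at 4 h whose groups did not overlap. Some genes that this rule names are not reported here. For each of the 9 genes, the 3 genes with the highest Pearson correlation over 12 group means were named. Alternatives were DESeq2 size factors, the DESeq2 1.42.0 Wald test, no or a stricter count filter, the deposited length-scaled estimated counts, only the compared groups, a replicate block, and leaving out each library or both that stood apart. Library totals without TMM were added after seeing the data. Sequences and positions are from GENCODE v29 on GRCh38.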

Additional observations from a re-analysis of the deposited data

Results flagged for a closer look

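The effect of a compound against DMSO differed between 2 and 4 h for 12 pairs of factor and compound, by edgeR's quasi-likelihood test of the difference itself; values are the 4 h effect minus the 2 h effect on the log2 scale, each with its SE and adjusted p. For TRAP1 they were −1.24 ± 0.11 for TP63 (2.5e-13), 0.78 ± 0.24 for SOX9 (0.012) and −0.46 ± 0.14 for GRHL2 (0.011). For JQ1 they were −1.31 ± 0.11 for TP63 (5.4e-14), −0.72 ± 0.14 for GRHL2 (4.2e-05) and 0.44 ± 0.16 for FOXA1 (0.030). For TRAP-1-NegP they were −0.77 ± 0.11 for TP63 (1.8e-07), 0.74 ± 0.24 for SOX9 (0.018), −0.39 ± 0.14 for GRHL2 (0.032), 0.45 ± 0.16 for OVOL1 (0.036) and 0.28 ± 0.11 for EHF (0.046). For MS78 the value was 0.36 ± 0.11 for EHF (0.015). The TP63 values and those of GRHL2 with TRAP1 and JQ1 were kept in the refits that left out 1 library. The call of EHF with TRAP-1-NegP was lost in 9 of 12 such refits. On library totals, the values of SOX9 with TRAP1 (adjusted p = 0.053), FOXA1 with JQ1 (0.059) and OVOL1 (0.052) and EHF (0.13) with TRAP-1-NegP were not called.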

How the results depend on the processing

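Of 234 changes of the 9 factors, 109 were called, 72 of them under every alternative, and no called change reversed. The alternatives other than single left-out libraries moved the number of factors called by over 1.5 times in these cases. With TRAP-1-NegB at 4 h 1 became 2 with DESeq2 or the replicate block and 3 without a count filter or without both libraries that stood apart, and 0 on library totals. With MS78 at 2 h 3 became 0 with only the compared groups and 5 without both libraries. Between TRAP1 and TRAP-1-NegP at 2 h 0 became 1 with DESeq2, with only the compared groups or without both libraries, and between TRAP1 and JQ1 at 2 h 0 became 1 with DESeq2 or without both libraries. Between JQ1 and TRAP-1-NegP at 2 h 2 became 4 with only the compared groups or without both libraries. For the effect at 4 h minus 2 h, TRAP-1-NegB went from 0 to 1 and JQ1 from 3 to 5 without both libraries, TRAP-1-NegP from 5 to 3 with length-scaled counts or library totals, and MS78 from 1 to 2 with length-scaled counts or library totals and to 0 with only the compared groups or without both libraries. Library totals lost 15 and gained 10 of the 234 calls. The cause was not tested. Leaving out 1 library gave, against DMSO, 6 to 8 factors with TRAP1 at 2 h and 7 to 9 at 4 h, 0 to 1 with TRAP-1-NegB at 4 h, 6 to 7 and 6 to 8 with TRAP-1-NegP, 3 to 4 and 1 to 3 with MS78. It gave 4 to 6 for TRAP1 against MS78 at 2 h, 0 to 3 for TRAP1 against TRAP-1-NegP at 4 h, 0 to 2 and 1 to 5 for JQ1 against TRAP-1-NegP, and, for the 4 h minus 2 h effect, 1 to 4 with TRAP-1-NegP, 2 to 4 with JQ1, 2 to 3 with TRAP1 and 0 to 3 with MS78; DMSO over time gave 2 to 4. Of 1674 such values, 112 lost and 19 gained a call. Same-numbered libraries did not vary together (198 pairs, median r 0.0025), and the replicate block changed 2 and DESeq2 size factors 4 of 234 calls. SOX9, with as few as 152 counts, had the widest intervals.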
